A study of Drosophila melanogaster with 4 samples.

Results

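Broad MOF domains on the X chromosome are the regions of MOF enrichment on X that spanned at least 3000 bp in the authors' list for the set of both replicates. There were 220 such domains among the 1283 enriched regions (clusters) of X and the 6232 clusters of the whole list. Membership rested on the chromosome and on the deposited start and end, so the domains were chosen by their width in that list, and the widths below are given as a description. Scores, and the clusters of the single replicates, come from the same ChIP libraries as those widths. They are described here and not tested.

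MOF is a histone acetyltransferase of the MYST family whose best known product is histone H4 acetylated at lysine 16. In Drosophila it belongs to the MSL complex, which raises transcription from the single male X, and to the NSL complex, which acts at promoters on all chromosomes in both sexes. The MSL complex is known to enter the X at GA-rich recognition elements and to spread from there over the bodies of active genes. The widths of enriched regions and the distances between them are therefore quantities of interest for this protein on X.

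The material was chromatin from whole wild-type Oregon-R embryos aged 14 to 16 h, collected from population cages and crosslinked with formaldehyde. The antibody is labelled MOF Q4145. There were 2 ChIP libraries and 2 input libraries of the same strain and stage, 1 input per ChIP library, with no mutant or depleted control. The labels give neither the sex of the embryos nor whether the replicates were separate collections, so the share of male chromatin is unknown and the spread between replicates may be technical. In such mixed chromatin, MOF bound in fewer cells and less MOF bound per cell cannot be told apart. Coordinates are on FlyBase release 5 and count from 1. No genome or annotation of that release was used, so no gene and no sequence is given for a domain.

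The 220 domains together covered 947 kb, or 4.22% of X and 32.4% of all bases inside X clusters of the replicate set. Their median width was 3806.5 bp, the interquartile range was 3382 to 4778.75 bp, and the widest measured 10879 bp. Most were close to the threshold: 70 were under 3500 bp, another 53 were under 4000 bp, and 54 lay between 4000 and 5000 bp. Of the 43 domains of at least 5000 bp, 12 reached 7000 bp. The same width rule applied to the list of a single replicate gave 153 X clusters in replicate 1 and 139 in replicate 2, against 220 in the replicate set. Just inside the threshold lay the domains starting at 1281172 (3008 bp, score 1.76), 11684739 (3018 bp, score 0.95) and 3035401 (3020 bp, score 0.50). Just outside it were the clusters starting at 6562164 (2991 bp, score 0.83), 11899927 (2981 bp, score 2.66) and 3055151 (2977 bp, score 1.98). Clusters with high and with low scores thus stood on both sides of the threshold.

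The single replicates contained nearly all of the domains. Replicate 1 had at least 1 overlapping cluster for 216 of the 220 domains (98.2%, exact 95% interval 95.4 to 99.5%), where 65.1% of all clusters of the replicate set had one. Replicate 2 had one for 218 (99.1%, 96.8 to 99.9%), against 61.1% of all clusters. Both replicates overlapped 214 domains (97.3%, 94.2 to 99.0%), against 53.5% of all clusters, and no domain was without a counterpart in either. As the replicate-set list was made from the same libraries, these shares describe how the lists relate and are no independent check. The intervals cover counting error only. The narrowest cluster was 1001 bp in the replicate set and 1301 bp in each replicate. The shares of all clusters thus include clusters narrower than any replicate cluster.

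The 6 domains missed by a replicate were also the 6 with the lowest scores in the replicate set, an observation made after their values were seen. The score is the authors' value per cluster and was read as the log2 of an enrichment ratio, with 1 unknown scaling constant per list. Replicate 2 had no cluster at 16350071 to 16353703, the lowest-scoring domain with 0.31, where replicate 1 had a cluster of 1849 bp and a score of 0.41. It also had none at 2172023 to 2175163, which scored 0.44 in the replicate set and 0.56 in replicate 1. The 4 domains without a cluster in replicate 1 started at 15803407, 6442678, 21208387 and 4581566, with replicate-set scores between 0.40 and 0.43. In replicate 2 they had single clusters of 1707, 1985, 1325 and 1446 bp, with scores of 0.53, 0.65, 0.70 and 0.68. None of these 6 domains held a replicate cluster of 3000 bp.

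Presence in a replicate did not mean equal width. A replicate cluster of at least 3000 bp overlapped 150 domains in replicate 1 (68.2%, against 10% of all clusters) and 138 in replicate 2 (62.7%, against 9.39%). Clusters of at least 3000 bp on the large autosome arms had nearly the same shares, 68.0% and 63.6%. For 122 domains (55.5%, 48.6 to 62.1%) this held in both, where 8.12% of all clusters of the replicate set meet the same condition, a share that the width rule itself sets apart. For 54 domains (24.5%, 19.0 to 30.8%) neither replicate had a cluster of that width, against 24.3% of the broad autosomal clusters and 88.7% of all clusters. Among the 43 domains of at least 5000 bp, 38 had a cluster of at least 3000 bp in both replicates. The 2 of these wide domains that had none in either replicate started at 733698 (5180 bp) and 15602920 (5420 bp), and were named after their values were seen. At the first the widest overlapping clusters were 2376 and 2984 bp, and at the second they were 2744 and 2792 bp.

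**Figure D1:**
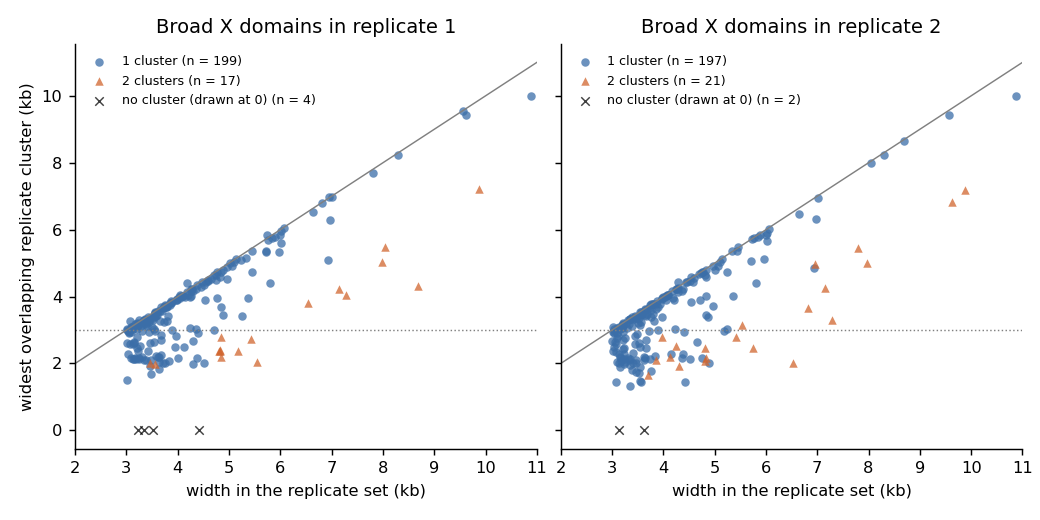
Width of each of the 220 broad X domains in the replicate set (x axis, kb) against the widest cluster that overlaps it in replicate 1 (left) and replicate 2 (right; y axis, kb), with the diagonal marking equal width and the dotted line 3 kb. Round points are domains met by 1 replicate cluster, triangles those met by 2 and crosses those met by none, and 68.2% and 62.7% of the domains reach the dotted line.

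Replicate clusters covered 88.0% of the domain bases in replicate 1 and 85.4% in replicate 2, a mean of 86.7% ± 1.83 (SD, n = 2). The median domain was covered to 96.4% in replicate 1 and 93.9% in replicate 2, and 113 domains (51.4%) were covered to at least 90% in both. This held for 49.0% of the broad autosomal clusters and 33.4% of all clusters. At the other end, 18 domains (8.18%), all under 5000 bp wide, were covered to less than 50% in at least 1 replicate, against 6.16% of the broad autosomal clusters and 47.2% of all clusters. Where a single cluster met the domain in each replicate (186 domains), the edges called in the replicates lay close together. The starts differed by a median of 51 bp and the ends by 41.5 bp, and both edges agreed within 100 bp for 94 of the 186 domains (50.5%). An edge differed by more than 1000 bp in 21 of them (11.3%). The replicate cluster was wider in replicate 1 for 102 domains and in replicate 2 for 83. The replicate-set domain was wider than both for 170 (91.4%). The domains were chosen by their replicate-set width, which favours that last count, so nothing is read from it.

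Splitting was commonest in the widest domains, on X as on the autosome arms, and the width floor of the replicate lists favours this. A domain was called split when 2 or more clusters of a replicate shared at least 1 base with it, and no domain was met by more than 2 clusters in a replicate. In replicate 1, 17 domains were split (7.73%, 4.57 to 12.1%; 0.947% of all clusters), and in replicate 2, 21 were (9.55%, 6.01 to 14.2%; 1.06% of all clusters). At least 1 replicate split 28 domains (12.7%, 8.63 to 17.9%), against 1.59% of all clusters of the replicate set. The background consists mostly of clusters narrower than the rule allows, so nothing is read from that contrast. By width, 1 of 70 domains under 3500 bp was split, 4 of 53 up to 4000 bp, 8 of 54 up to 5000 bp, 7 of 31 up to 7000 bp and 8 of 12 above. These shares were 1.43%, 7.55%, 14.8%, 22.6% and 66.7%, against 0.769%, 7.79%, 17.2%, 15.5% and 53.3% of the broad autosomal clusters. In either replicate list the narrowest cluster was 1301 bp, so a domain near 3000 bp had little room for 2. The rise with width is therefore partly set in advance by that floor, and nothing is read from it. When each list was first cut at its median score, the split share was 5.80%.

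The gaps between split clusters were short, and most split domains were split in 1 replicate alone. Over the 38 splits, 17 in replicate 1 and 21 in replicate 2, the gap ranged from 0 to 1727 bp with a median of 260.5 bp. The split counted in replicate 2 at 8787081 to 8791055 rested on a cluster at 8791036 to 8793026, which lay mostly outside the domain. When an overlap of at least 50 percent of the shorter cluster was required, 27 domains were split. In the domain starting at 4215416 the clusters of replicate 1 abutted with no base between them. Both replicates split 10 domains (4.55%), against 2.20% of the broad autosomal clusters and 0.417% of all clusters. In 8 of these 10 domains the gaps shared at least 1 base. The centres of the gaps lay a median of 69.75 bp apart over the 10 domains. The 2 exceptions were the domains starting at 6232015, where the gap centres were 1240 bp apart, and at 17720213. Another 18 domains were split in 1 replicate alone. In 13 of these the other replicate had a cluster that spanned the gap, and in 5 it had a cluster on 1 flank and none on the other.

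The pieces of a split domain often differed in score. The median difference between the left and the right piece was 0.53 on the log2 scale, and the greatest was 1.75, in the domain starting at 3569690. The domain at 3666292 to 3676162 (9871 bp, score 2.20) consisted in replicate 1 of a left cluster of 2407 bp with a score of 0.89 and a right cluster of 7219 bp with 2.32, separated by 240 bp. In replicate 2 the left cluster had 2327 bp and a score of 1.07 and the right one 7185 bp and 2.70, with 273 bp between them. The stronger piece was the same one in both replicates. In the domain at 2194019 to 2201991 (7973 bp, score 2.02) the narrower left cluster was the stronger. Replicate 1 gave it 2761 bp and a score of 2.38, and replicate 2 gave it 2722 bp and 2.65. The right cluster had 5023 bp and a score of 1.59, and 5013 bp and 1.81, in the same order. The widths of both pieces agreed within 100 bp between the replicates.

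The domain at 7598133 to 7605276 (7144 bp, score 2.04) was split after a left cluster of 4217 and 4244 bp in the replicates, with gaps of 39 and 51 bp. Its left clusters scored 2.09 and 2.54 and its right clusters 1.46 and 1.71. The domain at 6232015 to 6239303 (7289 bp, score 1.04) was divided at different places. Replicate 1 had clusters of 2768 and 4044 bp with a gap of 233 bp, and replicate 2 clusters of 3289 and 2309 bp with a gap of 1727 bp. The weakest of the 5 widest domains split in both replicates, at 17720213 to 17726749 (6537 bp, score 0.66), had a gap of 43 bp in replicate 1 and of 1604 bp in replicate 2.

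Of the 10 widest domains, 3 were a single cluster in both replicates, 3 were split in both, 2 in replicate 1 alone and 2 in replicate 2 alone. The single ones were the widest of all, at 7583860 to 7594738, and those at 3578065 to 3587624 and 8300842 to 8309137. The widest had a replicate-set score of 2.35, with 2.20 and 2.68 in the replicates. In both replicates its cluster ended short of the replicate-set domain, which was covered to 92.0% each time. The domain at 3578065 scored 1.70, 1.62 and 1.75 in the same order and was covered to 99.9% and 98.6%. That at 8300842 had clusters of 8241 and 8229 bp, with scores of 1.58, 1.45 and 1.77. The single domains thus kept nearly the same width in each replicate.

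Domains split in 1 replicate alone included 7949665 to 7958357 (8693 bp), which was a single cluster of 8653 bp in replicate 2 with a score of 2.45. In replicate 1 it fell into clusters of 4314 and 4276 bp, scoring 2.39 and 1.79, with 51 bp between them. The domain at 3569690 to 3577731 (8042 bp) was a single cluster of 7987 bp in replicate 2. In replicate 1 a cluster of 5479 bp with a score of 2.55 stood 101 bp from one of 2404 bp with a score of 0.80. Replicate 2 alone divided the domain at 12553498 to 12563124 (9627 bp, score 1.10), into clusters of 6820 and 1504 bp with a gap of 1115 bp. It also divided that at 15979112 to 15986911 (7800 bp, score 1.50), into clusters of 5456 and 2249 bp with a gap of 69 bp. Over all 220 domains, replicate 1 alone split 7 (3.18%), against 3.37% of the broad autosomal clusters and 0.530% of all clusters. Replicate 2 alone split 11 (5%), against 3.81% and 0.642%.

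**Figure D2:**
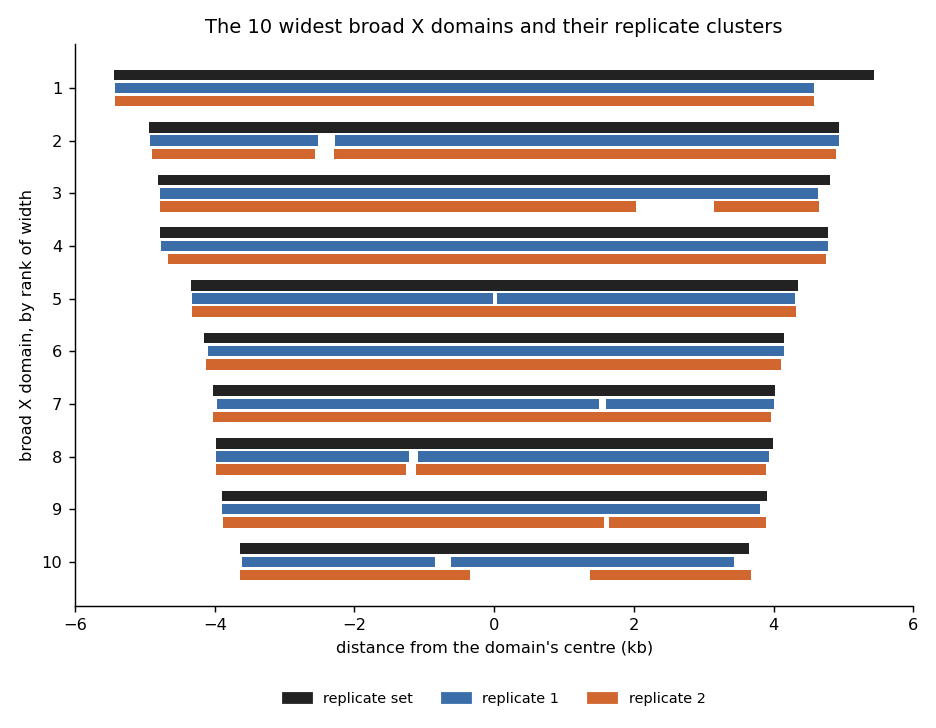
The 10 widest broad X domains, ranked by width from top to bottom, drawn to scale as distance from each domain's centre (x axis, kb). Black bars are the replicate-set domains and blue and orange bars the clusters of replicates 1 and 2, so that white breaks within a colour are the gaps between split clusters, from 51 to 1727 bp, and ranks 1, 4 and 6 show no break.

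Broad domains scored higher than narrow clusters of X. In the replicate set the median score was 1.19 for the 220 domains and 0.51 for the 1063 X clusters under 3000 bp, a difference of 0.68 on the log2 scale or 1.60-fold in the ratio. In the replicates' own lists, with the width rule applied to each, the medians were 1.35 against 0.72 in replicate 1 and 1.65 against 0.85 in replicate 2. The differences were 0.63 and 0.80. Width and score come from the same calls, so the difference was not tested. Among the domains themselves, width and score had a Spearman rho of 0.21 (n = 220 domains of 1 list, which share libraries). The median score was 1.06 for domains under 3500 bp, 1.57 for those of 5000 to 7000 bp and 1.88 for the 12 above. For broad autosomal clusters of the same widths it was 1.07, 1.47 and 1.95.

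The range of scores within the broad domains was wide, from 0.31 to 2.55, with an interquartile range of 0.86 to 1.76. The highest score belonged to a domain of 3814 bp at 7192798 to 7196611, with 2.55 in replicate 1 and 2.70 in replicate 2. Next came 3633082 to 3640052 (6971 bp, score 2.48), with 2.50 in replicate 1 and 2.67 in replicate 2. The domain at 5409934 to 5413520 (3587 bp) scored 2.45, with replicate values of 2.11 and 2.85 that lay farther apart than those of the others. The remaining 7 of the 10 highest scored between 2.33 and 2.42 and started at 19744002, 9577307, 3569690, 9585797, 7583860, 17550802 and 7199260. Only 2 of these 10, those starting at 3569690 and 7583860, were also among the 10 widest. Over the 214 domains overlapped in both replicates, the best replicate scores had a Spearman rho of 0.92 between replicates. Replicate 2 had the higher value for 176, on its own scale.

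**Figure D3:**
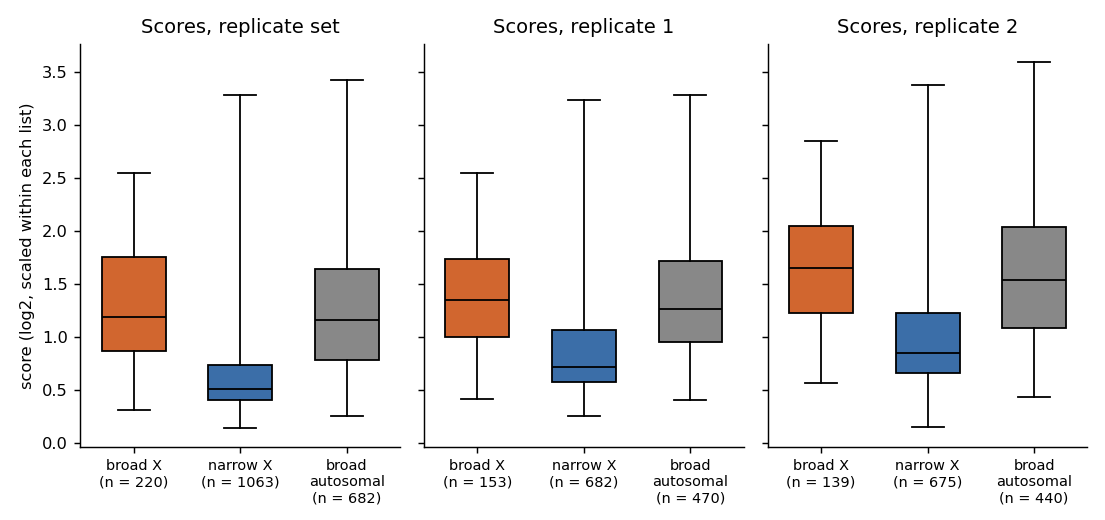
Scores (y axis, log2, each list with its own scaling constant) of broad X clusters, narrow X clusters and broad clusters of the autosome arms, in the replicate set and in each replicate with the width rule applied to its own list. Boxes span the interquartile range with a line at the median and whiskers reach the lowest and highest value; broad X medians of 1.19, 1.35 and 1.65 lie above the narrow X medians of 0.51, 0.72 and 0.85.

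Weakly enriched domains were the less completely covered ones. In the 55 domains with the lowest scores, the median coverage was 87.1% in replicate 1 and 66.2% in replicate 2, and 26 of them (47.3%) had no cluster of 3000 bp in either replicate. In the 55 with the highest scores the medians were 97.6% and 97.2%, and 6 (10.9%) had none. No such cluster in either replicate was found for 24.3% of the broad autosomal clusters and 88.7% of all clusters. Split domains numbered 11 among the 55 lowest (20.0%) and 5 among the 55 highest (9.09%), against 9.38% of the broad autosomal clusters and 1.59% of all clusters. The autosomal clusters were not divided by score, so these contrasts are not shown to be particular to X. Across all 220 domains the score had a Spearman rho of 0.34 with coverage in replicate 1 and of 0.47 with coverage in replicate 2. Both measures come from the same libraries.

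**Figure D4:**
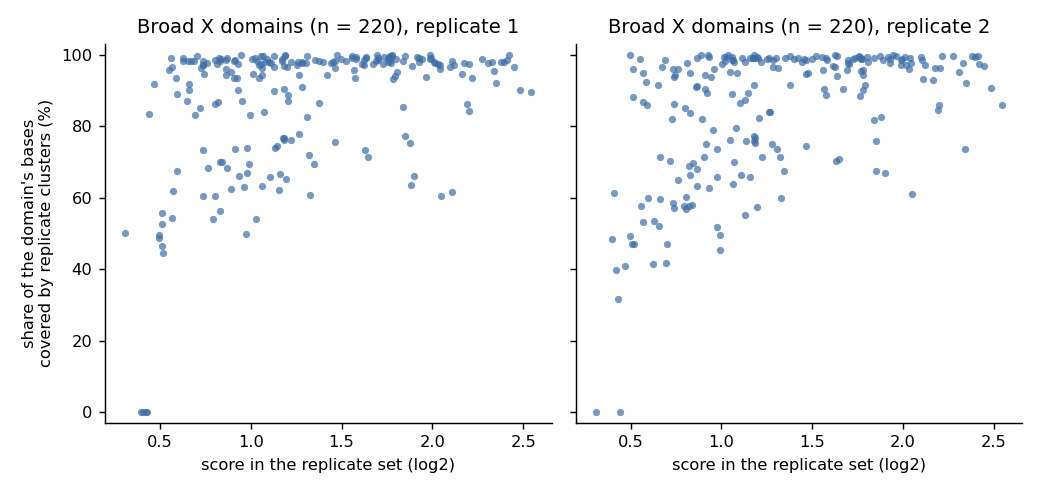
Share of each domain's bases covered by clusters of replicate 1 (left) and replicate 2 (right; y axis, percent) against its score in the replicate set (x axis, log2), 1 point per domain (n = 220). The 4 and 2 domains at 0% are those with no replicate cluster, at scores from 0.31 to 0.44, and the 55 highest-scoring domains have medians of 97.6% and 97.2%.

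Broad domains occurred along nearly the whole X, from 169172 to 21248666 of 22422827 bp. Release 5 numbers X from its distal tip, and the part with the fewest domains was the end nearest the centromere. Counted by midpoint in windows of 1 Mb, the median full window held 10 domains. The highest numbers were 18 of 73 clusters at 6 to 7 Mb and 17 of 80 at 1 to 2 Mb. Next came 14 each at 3 to 4 Mb (of 51), 10 to 11 Mb (of 59) and 13 to 14 Mb (of 61). The lowest were 2 of 44 at 20 to 21 Mb, 3 of 39 at 21 to 22 Mb and 5 of 35 at 14 to 15 Mb. The partial window beyond 22 Mb had none among 11 clusters. As a share of clusters, 3 to 4 Mb led with 27.5%, and 20 to 21 Mb was the lowest full window with 4.55%. The share of 14.3% at 14 to 15 Mb was the same at 18 to 19 and 19 to 20 Mb. In domain length the window at 6 to 7 Mb led with 76.8 kb, followed by 1 to 2 Mb with 74.6 kb, 3 to 4 Mb with 69.7 kb and 7 to 8 Mb with 69.2 kb. These windows were picked after their values were seen.

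X held more broad domains distal to its midpoint than proximal to it, although the numbers of clusters on either side were similar. There were 134 domains among 655 clusters (20.5%) on the distal side and 86 among 628 (13.7%) on the proximal side. In replicate 1 the shares of broad clusters were 21.4% (94 of 439) and 14.9% (59 of 396). In replicate 2 they were 21.4% (92 of 429) and 12.2% (47 of 385). All 3 lists thus had the higher share on the distal side. The lists rest on the same libraries, neighbouring clusters are not independent, and the division at the midpoint was chosen after the data were seen, so no test was made. Over the 22 full windows, the number of broad domains had a Spearman rho of 0.40 with the number of narrow clusters, a description of windows that share libraries.

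Distances between neighbouring domains covered several orders of magnitude. Measured from the end of a domain to the start of the next, the 219 distances had a median of 52546 bp, with an interquartile range of 13189 to 120592 bp. In the replicates' own lists the median was 69224.5 bp in replicate 1 and 81353 bp in replicate 2, where fewer clusters reach 3000 bp. The shortest distances were 57 bp after the domain ending at 1281114, 74 bp after that ending at 4581491 and 145 bp after that ending at 3587624. The longest ran from 19772333 to 20924053, a stretch of 1151719 bp with no broad domain but 48 narrow clusters. It was followed by 667839 bp from 16732251, with 32 narrow clusters, and 609067 bp from 14108904, with 12. No replicate cluster of at least 3000 bp lay within any of these 3 stretches. Of such replicate clusters on X, 151 of 153 in replicate 1 and 138 of 139 in replicate 2 overlapped a domain. The absence between domains was thus nearly given in advance, and nothing is read from it.

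Most broad domains stood alone, and a minority lay close to each other. Of the 219 distances 20.5% were within 10000 bp, against 16.2% of the 678 distances between broad clusters on the autosome arms. X also carried more broad clusters per Mb (9.81 against 7.06), so the shorter distances are no separate measure of grouping. At a maximal distance of 10000 bp, 80 of the 220 domains (36.4%) stood in 35 groups, of which 27 were pairs, 6 had 3 domains and 2 had 4, while 140 domains stood alone. The group with the longest span ran from 1834767 to 1866912 (32146 bp). Its 4 domains filled 55.9% of the span and scored between 0.84 and 1.99. The other group of 4 ran from 10694251 to 10718744 (24494 bp), with scores from 0.93 to 1.26. In both groups every domain was a single cluster in each replicate.

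The most continuous group was 3569690 to 3592012, where 3 domains of 8042, 9560 and 4243 bp filled 97.9% of 22323 bp. Only 333 and 145 bp separated them. Their replicate-set scores were 2.39, 1.70 and 1.96. The corresponding scores were 2.55, 1.62 and 1.83 in replicate 1 and 2.57, 1.75 and 2.25 in replicate 2. Further broad domains followed proximally: the pair at 3611742 to 3619420, the pair at 3633082 to 3644126 and the 9871 bp domain at 3666292. The widest domain of X was likewise part of a pair, 7583860 to 7605276. The 3394 bp between its members held a narrow cluster at 7595616 to 7597920 with a score of 2.67, higher than that of any broad domain. These groups were chosen for description after their values were seen.

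**Figure D5:**
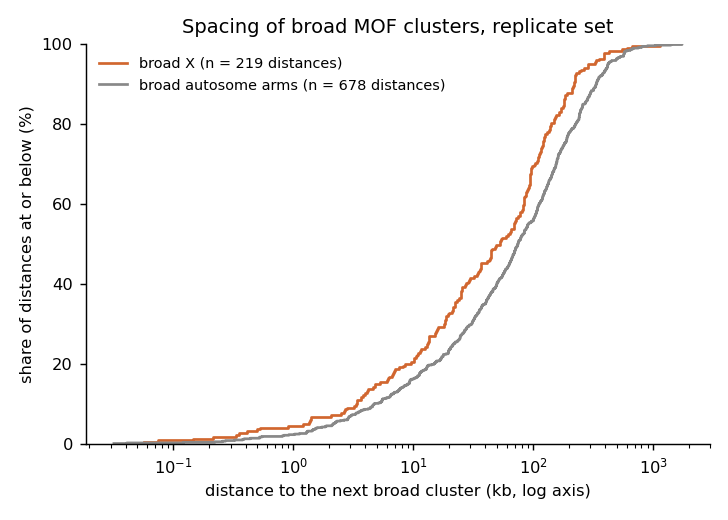
Cumulative share (y axis, percent) of distances between neighbouring broad clusters (x axis, kb, log axis) on X (219 distances) and on the 4 large autosome arms (678 distances) in the replicate set. The X curve lies to the left of the autosomal curve over most of its course, with medians of 52546 and 74613 bp. Distances were not adjusted for density, which was 9.81 broad clusters per Mb on X and 7.06 on the autosome arms.

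Narrow clusters lay in most of the intervals between domains. Of the 219 intervals 178 held at least 1 narrow cluster and the median interval held 3. The nearest cluster of any width lay a median of 2776 bp from a broad domain and 3500 bp from a narrow cluster of X. Within 5000 bp, 158 of the 220 domains (71.8%) and 655 of the 1063 narrow clusters (61.6%) had a neighbour. Only 1 domain was more than 50000 bp from any other cluster, at 85187 bp.

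Compared with the 682 clusters of at least 3000 bp on the major autosome arms (2L and 2R, 3L and 3R), the X domains were denser. X carried 9.81 broad clusters per Mb in the replicate set and the autosome arms 7.06, with 6.82 against 4.87 in replicate 1 and 6.20 against 4.55 in replicate 2. Broad clusters made up 1.17 times as large a share of clusters on X as on autosomes in the replicate set. By the replicates' own lists this was 1.25 times and 1.16 times. When each list was first cut at its median score, this ratio was 1.03. Median scores of the replicate set were 1.19 on X and 1.16 on autosomes. The replicates' own lists gave 1.35 against 1.27 and 1.65 against 1.54. Both replicates overlapped 661 of the 682 autosomal clusters (96.9%, 95.3 to 98.1%), against 97.3% (94.2 to 99.0%) of the X domains. At least 1 replicate split 64 of them (9.38%, 7.30 to 11.8%), against 12.7% on X with an interval of 8.63 to 17.9%. Domain bases were covered to 86.6% ± 1.43 (SD, n = 2) on autosomes and 86.7% ± 1.83 on X. Domains of at least 5000 bp made up 19.5% (14.5 to 25.4%) of the broad X domains and 14.5% (12.0 to 17.4%) of the autosomal ones. In replicate 1 these shares were 20.3% and 13.8%, and in replicate 2 they were 19.4% and 14.1%. The intervals count clusters as independent units, which neighbouring clusters are not, so they do not decide whether X and autosomes differ. Chromosome and width formed the rule that chose the domains, and 2 ChIP libraries of 1 group allow no test over samples, so none of these differences was tested.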

How the data were processed

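MOF ChIP DNA from 2 replicates was sequenced with 1 input library each. The submitters' processing notes name Bowtie 0.12.7. Per the file headers, the 3 deposited lists give enriched regions on FlyBase release 5. Which peak caller made them, at which threshold, and how the replicate set was formed is not given in the sources used here. The scores that the authors deposited, 1 per cluster without a scale, were read as log2 ratios, since after subtraction of a list's commonest score 2 to its power was a ratio of whole numbers (denominator up to 1000, relative tolerance 1e-10) for 98.4% to 99.8% of clusters per list, against 0.384% to 0.794% with base e. Scores were compared within lists. Library depth is unknown, so scores carry no counting error.

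Widths were computed as end minus start plus 1. Overlap required 1 shared base. A replicate score is that of the highest-scoring overlapping cluster. Shares carry exact (Clopper-Pearson) 95% intervals. Matching was tested on simulated lists. The domains, measures and alternatives were chosen with earlier results of these data known. Regions named were the 10 widest, the 10 highest and 5 lowest scores, the 5 widest domains with the most pieces, 3 on each side of the threshold, and the 3 longest and shortest distances, unless stated otherwise. Alternatives were a width of 4000 bp, merging within 500 bp, clusters at or above the median score, other overlap rules and single replicates. A planned count of GA repeats was not made, since no release 5 genome was used. Python 3.11.15, numpy 2.4.6, pandas 2.3.3 and scipy 1.17.1 were used.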

Additional observations from a re-analysis of the deposited data

How the results depend on the processing

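Over 7 results and 38 alternatives, 20 values moved and 18 stayed within the replicate spread, the 95% interval or 1.5 times the count. The cause was not tested. For distance, score difference, ratio and coverage, the replicate spread was computed from the same single-replicate values that it was used to judge. Both single-replicate values of coverage had to lie within it, so these counts are a description and no check of robustness. With a width of at least 4000 bp there were 97 domains, 23.7% of them split, with a median distance of 96546 bp, 89.6% of bases covered and a broad share 1.31 times that of autosomes. After merging within 500 bp the distance was 37662 bp and coverage 81.2%. With each list cut at its median score, 82.6% were overlapped in both replicates, 5.80% were split, 79.2% of bases were covered, the broad minus narrow score was 0.47 and the ratio to autosomes 1.03. A reciprocal overlap of 50 percent left 86.8% overlapped in both. In the lists of the single replicates, the number was 139 to 153 and the distance 69224.5 to 81353 bp. The score difference was 0.63 to 0.80 and the ratio 1.16 to 1.25. The replicate-set domains, still made from both libraries, were also matched to 1 replicate at a time. The share overlapped in that replicate was 98.2% to 99.1%, the share split 7.73% to 9.55% and coverage 85.4% to 88.0%. Matching to 1 replicate cannot lower the share overlapped or raise the share split, so nothing is read from those changes. No paired analysis was possible because the input libraries have no list of their own and no result comes from a test.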

Other observations

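A few broad replicate clusters of X touched no broad domain of the replicate set. Of the 153 in replicate 1, 151 overlapped a domain. The exceptions were 5256367 to 5259407 (3041 bp, score 1.40), which met a replicate-set cluster of 2918 bp, and 19605808 to 19609593 (3786 bp, score 0.91), which spanned 2 narrower replicate-set clusters. Of the 139 in replicate 2, 138 overlapped a domain, and 19439726 to 19443116 (3391 bp, score 0.79) spanned 2 narrower ones.

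There were 9 narrow clusters of X with a score above that of every broad domain in the replicate set. The first of them, at 2745335 to 2746335, was only 1001 bp wide with a score of 3.29 and overlapped no cluster in either replicate. That is the least width in the replicate set, while the narrowest cluster of each replicate measured 1301 bp. That at 2210483 to 2212853 (2371 bp, score 3.28) lay 4303 bp from a broad domain, and that at 1868894 to 1871474 (2581 bp, score 2.59) lay 1981 bp from one. That at 16109834 to 16112699 (2866 bp, score 3.27) was 63959 bp away from the nearest. The heterochromatic X scaffold XHet had 11 clusters in the replicate set and 8 in each replicate, the widest of 2250 bp, so no broad domain occurred there.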
